A study of Homo sapiens with 2 samples.

Results

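The genes described here are the 48 that encode the machinery which brings new proteins into the endoplasmic reticulum (ER) and folds them there, chosen by their symbols from the 23709 genes of 1 expression table. They were measured in Caco-2, an epithelial line from a human colorectal adenocarcinoma that resembles enterocytes, grown in DMEM with fetal bovine serum, penicillin/streptomycin and ciprofloxacin. Poly(A) RNA was sequenced from total RNA (the mRNA library) and from the RNA that came down with ribosomes still carrying their nascent chains (the RNC-mRNA library, meant to hold mRNAs under translation). Each kind of RNA has 1 library of 1 cell line, and the labels do not say whether both came from the same culture, so no difference below has a replicate check and no test was possible. All 48 genes were expressed, here meaning a mean of at least 1 RPKM (reads scaled to transcript length and library size) over both libraries, as were 13402 genes in all. The genes fall into 31 for targeting and translocon functions and 17 for folding.

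Secretory and membrane proteins are made on ribosomes at the ER. The signal recognition particle (SRP) binds the signal sequence as it leaves the ribosome and docks on the SRP receptor, and the chain is passed into the Sec61 channel. Signal peptidase then removes the signal sequence, the oligosaccharyltransferase adds glycans, and luminal chaperones and disulfide isomerases fold the product. Enterocytes rely on this route for brush border enzymes and apolipoproteins.

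The translation ratio divides a gene's RNC-mRNA level by its mRNA level. It is given on the log2 scale, centred on the median over the 13402 expressed genes, as log2((RNC-mRNA + 0.1) / (mRNA + 0.1)) minus that median, which was -0.04. The pseudocount of 0.1 RPKM understates ratios of low genes slightly. Worked out from the RPKM values, the totals were 9640364 reads for mRNA and 11083302 reads for RNC-mRNA. A counting interval is the exact Clopper-Pearson 95% interval of a ratio from the smallest whole read numbers that fit its RPKM in each library. It covers counting error only, and not differences between cultures or PCR copies. The true reads can be a multiple of these, so the interval can be too wide. At the whole-read solution nearest to the annotated GENCODE length, an alternative added after the data were seen, 19 of the 48 genes had more reads, and only SEC61A2, STT3A and HYOU1 changed side, from spanning the median to lying above it. The median gene among the 48 rested on at least 960.5 mRNA reads and 1226.5 RNC-mRNA reads, and the thinnest, SEC61A2, on at least 51 and 74. In bulk RNA, fewer cells with an mRNA and less of it per cell cannot be told apart.

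Of 12 epithelial and enterocyte markers, 11 had at least 1 RPKM in both libraries. The exception was KRT20, a keratin of differentiated gut epithelium, at 0.977 RPKM in mRNA and 0.0500 RPKM in RNC-mRNA. The summed level of the 12 was 4329.7 and 4329 RPKM. Of 16 markers of leukocytes, endothelium, fibroblasts, neurons and plasma cells, 7 reached 1 RPKM in both, with summed levels of 118 and 91.2 RPKM. Among the genes taken as plasma cell markers, MZB1 and IGJ were listed at 0 in both, whereas SDC1 had 42.1 and 46.8 RPKM. SDC1 thus made up a large part of the summed level, and which cells its RNA came from was not tested. The collagen gene COL1A1 had 46.8 and 26.1 RPKM. The part of these RNAs in the results below was not tested.

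Genes of targeting, translocation, signal cleavage and glycan transfer mostly had more of their level in the RNC-mRNA library than the median gene, whereas folding genes lay around the median. Where each group lies depends on the centre, as given with the level of the genes. Of the 31 targeting and translocon genes, 26 had a ratio above the median of all expressed genes, against 7 of the 17 folding genes. By definition 50% of expressed genes lie above that median, and of those of at least 10 RPKM 62.2% did. The median ratio was 0.22 for targeting and translocon genes, from -0.23 (SEC62) to 0.62 (STT3B). Folding genes had a median of -0.02, from -0.49 (HSP90B1) to 0.44 (CANX). The difference of the medians was -0.23, so the typical targeting gene had a ratio 1.17-fold that of the typical folding gene. In 424 of the 527 pairs of 1 targeting and 1 folding gene (80.5%), the targeting gene had the higher ratio. The ranges overlapped. These are genes and not replicates, so the pairs describe the overlap and give no test.

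All these differences were small. None of the 48 genes was at least 2-fold above the median, where 1.37% of expressed genes were (0.799% of those of at least 10 RPKM), and none was at least 2-fold below, where 11.8% were (3.15% of those of at least 10 RPKM). At 1.5-fold, 2 genes were above, STT3B and SPCS1, against 7.44% of expressed genes (7.31% of those of at least 10 RPKM), and none below, against 19.7% (8% of those of at least 10 RPKM). Neither gene reached 1.5-fold with a filter of 5 RPKM, equal summed RPKM, upper-quartile scaling, summed RPKM without the 100 most abundant genes, a centre of genes of at least 10 RPKM or the own decile, and under the last 2 centres HSP90B1 was at least 1.5-fold below. The counting interval lay wholly above the median for 22 of the 48 (29.6% of expressed genes, 44.1% of those of at least 10 RPKM) and wholly below it for 5 (30% of expressed genes, 24.1% of those of at least 10 RPKM). Of those 22, 20 were targeting or translocon genes and 2 were folding genes. This balance depended on the centre. Against genes of at least 10 RPKM, 13 intervals lay above and 14 below. Against a gene's own decile of level, 12 lay above and 15 below, 11 of the 15 being folding genes. The share of all expressed genes was not computed for either centre, so these counts have no background. The 5 below the median of all expressed genes were SEC62 and the folding genes HSP90B1, UGGT1, HSPA5 and PDIA6.

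**Figure D1:**
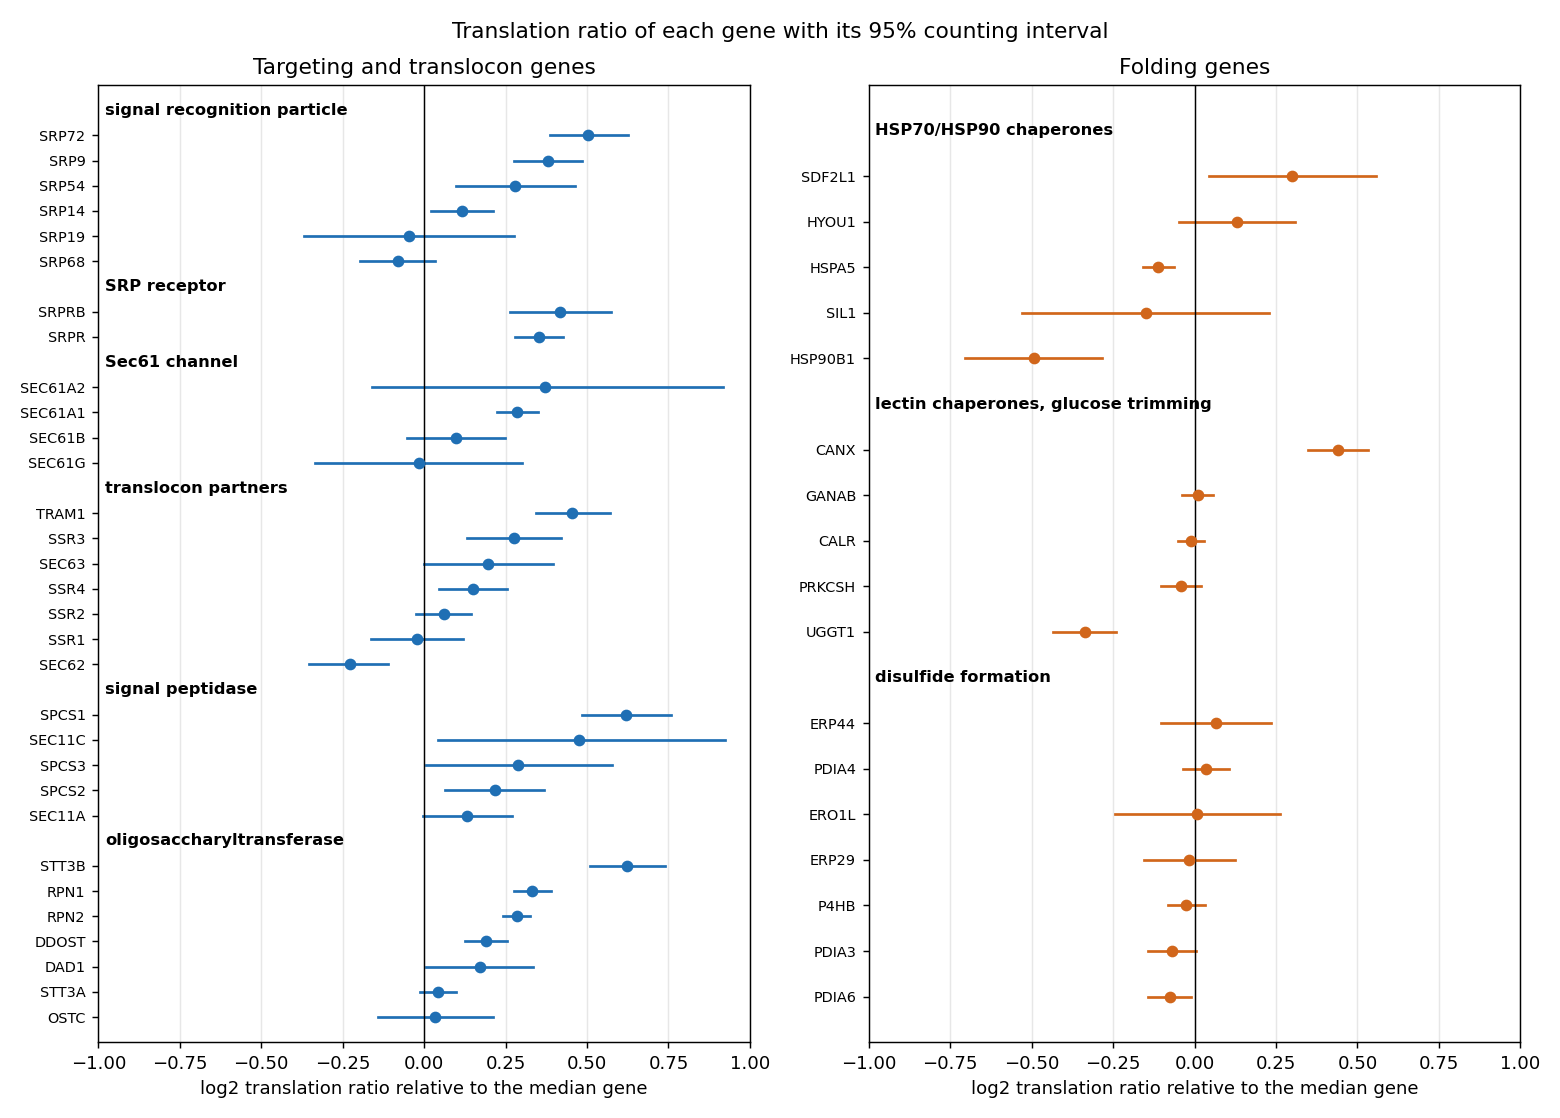
Log2 translation ratio of each gene, centred on the median expressed gene (horizontal axis, black line at the median), with points for the ratio and bars for the 95% counting interval, ordered within each subgroup. With this centre, all 5 signal peptidase genes and all 7 oligosaccharyltransferase genes lie to the right of the line, and the 7 disulfide formation genes lie between -0.08 and 0.07.

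Level matters for the reading of these ratios, because the ratio was higher at higher expression over the whole table. Across all 13402 expressed genes, Spearman's rho between ratio and mean RPKM was 0.32, a description over genes that share both libraries. Of the 6509 genes with a mean of at least 10 RPKM, 62.2% lay above the median of all expressed genes. In the lowest decile of expressed genes by level the median ratio was -0.57, and in the highest decile 0.17. The highest decile held 12 of the 17 folding genes and 13 of the 31 targeting genes, and 70.1% of all its genes lay above the median of all expressed genes. The decile before it held 8 targeting genes, and 69.7% of its genes lay above. Set against the median of its own decile, a comparison added after the data were seen, 18 of 31 targeting genes were above (median difference 0.11) and 2 of 17 folding genes, CANX and SDF2L1, were above (median difference -0.19). The order of the groups was the same, with targeting genes slightly above and folding genes below genes of like level. Within the 48 genes the ratio had little relation to level (rho -0.12) or to transcript length (rho -0.10).

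**Figure D2:**
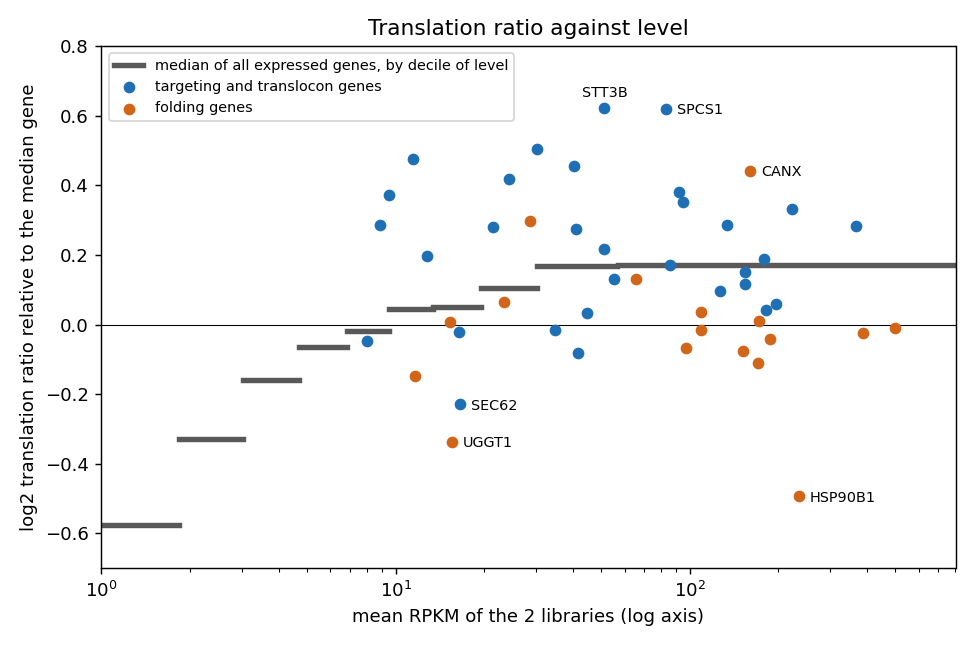
Log2 translation ratio (vertical axis) against the mean RPKM of both libraries (horizontal log axis), with blue points for targeting and translocon genes, orange points for folding genes and grey bars for the median of all expressed genes in each decile of level. The bars climb from -0.57 to 0.17, most folding genes of high level sit under the last bar, and HSP90B1 is the lowest point.

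**Figure D3:**
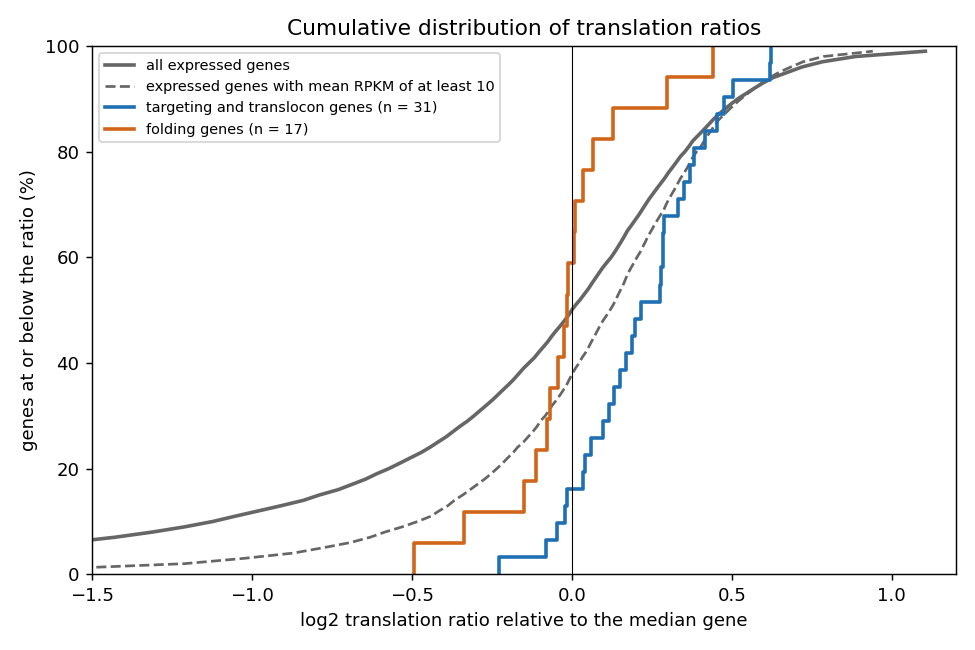
Share of genes at or below each log2 translation ratio, for the 31 targeting and translocon genes (blue), the 17 folding genes (orange), all expressed genes (solid grey) and those of at least 10 RPKM (dashed grey). The blue curve lies to the right of the orange one through most of its length, with medians of 0.22 and -0.02, and neither group has the long left tail of all expressed genes.

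The SRP is a ribonucleoprotein whose protein subunits were present at very unlike mRNA levels. SRP14, which with SRP9 forms the part that slows elongation, had 149.8 RPKM in mRNA and 158 RPKM in RNC-mRNA (ratio 0.12, counting interval 0.02 to 0.21). Its partner SRP9 had 81.2 and 103 RPKM (0.38, interval 0.28 to 0.49). The ratio of SRP14 was thus 0.26 below that of SRP9 on the log2 scale, with a counting interval of the difference from -0.41 to -0.13. SRP68 and SRP72 form another heterodimer of the particle and also parted. SRP68 had 43.3 and 39.8 RPKM (-0.08, interval -0.20 to 0.03), and SRP72 had 25.3 and 35.0 RPKM (0.50, interval 0.39 to 0.62). The difference of 0.59 (interval 0.42 to 0.75) brought the levels of these partners from 1.71-fold apart in the mRNA library to 1.14-fold apart in the RNC-mRNA library. For scale, the quartiles of the ratio over expressed genes of at least 10 RPKM were -0.15 and 0.34. Whether partners differ more than unrelated genes was not tested, here or for the pairs below. SRP54, the GTPase that holds the signal sequence, had 19.7 and 23.3 RPKM (0.28, interval 0.10 to 0.46). SRP19, which helps SRP54 onto the SRP RNA, was the scarcest, with 8.23 and 7.75 RPKM (-0.05, interval -0.37 to 0.28).

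Both subunits of the SRP receptor were above the median. SRPR, the subunit that binds the GTPase of SRP, had 84.3 and 105 RPKM (0.35, interval 0.28 to 0.43). SRPRB, its membrane anchor, had 21.1 and 27.4 RPKM (0.42, interval 0.26 to 0.57). SRPR was 3.82-fold the more abundant in RNC-mRNA, and the difference of their ratios was 0.07 with an interval of -0.10 to 0.24.

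The Sec61 channel is built from an alpha, a beta and a gamma subunit. SEC61A1, the main pore-forming alpha subunit, had 122 and 145 RPKM (0.29, interval 0.22 to 0.35), and the beta subunit SEC61B 124 and 129 RPKM (0.10, interval -0.05 to 0.25). Their mRNA levels were nearly equal, and the ratio of SEC61B was 0.19 lower (difference -0.19, interval -0.35 to -0.03). The gamma subunit SEC61G had 35.4 and 34.1 RPKM (-0.02, interval -0.33 to 0.30). SEC61A2, the second alpha gene, had 8.37 and 10.6 RPKM (0.37, interval -0.16 to 0.92, or 0.07 to 0.68 from reads at its annotated length). SEC61A1 was 14.6-fold higher than SEC61A2 in the mRNA library and 13.7-fold in the RNC-mRNA library. The counting interval of the difference of their ratios, -0.43 to 0.61, or -0.21 to 0.39 from reads at the annotated lengths, leaves its direction unresolved.

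Partners of the channel spread more widely. TRAM1, a membrane protein next to the channel, had 34.7 and 46.4 RPKM (0.46, interval 0.34 to 0.57). The translocon-associated protein complex is encoded by SSR1 to SSR4. SSR2 had 195 and 198 RPKM (0.06, interval -0.02 to 0.14) and SSR4 148 and 160.3 RPKM (0.15, interval 0.05 to 0.26). SSR3 had 37.7 and 44.4 RPKM (0.28, interval 0.13 to 0.42) and SSR1 16.8 and 16.1 RPKM (-0.02, interval -0.16 to 0.12). SEC62 and SEC63 assist the translocation of short or weakly targeted chains and, for SEC63, bring the chaperone BiP to the channel. SEC62 had 18.0 and 14.98 RPKM (-0.23, interval -0.35 to -0.11), the lowest ratio of the 31 genes, and SEC63 had 12.0 and 13.4 RPKM (0.20, interval 0.00023 to 0.40). Their ratios differed by 0.43 (interval 0.20 to 0.66).

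All 5 signal peptidase genes lay above the median, of which SEC11A was below within its own decile of level (-0.036). SPCS1, a small accessory subunit, had 66.4 and 99.5 RPKM, a ratio 1.54-fold that of the median gene (0.62, interval 0.48 to 0.76) and higher than that of 93.7% of expressed genes. SPCS2 had 48.1 and 54.4 RPKM (0.22, interval 0.06 to 0.37), and SPCS3, which the enzyme needs for activity, 8.08 and 9.62 RPKM (0.29, interval 0.0059 to 0.58). The alternative catalytic subunits SEC11A and SEC11C had 53.6 and 57.2 RPKM (0.13, interval -0.0044 to 0.27) and 9.70 and 13.2 RPKM (0.48, interval 0.04 to 0.92). SEC11A was thus the more abundant in both libraries, 5.53-fold and 4.35-fold, and the difference of the ratios, 0.34, had an interval of -0.10 to 0.79 from the fewest reads and of 0.02 to 0.68 from reads at the annotated lengths. Summed over the complex, the level was 186 RPKM in mRNA and 234 RPKM in RNC-mRNA.

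All 7 oligosaccharyltransferase genes were above the median of expressed genes as well, though not under every centre. STT3A and OSTC were below with a filter of 5 RPKM (-0.041 and -0.048), with upper-quartile scaling, without the 100 most abundant genes and against genes of at least 10 RPKM, OSTC alone was below at equal summed RPKM, and STT3A, OSTC and DAD1 were below within their own decile. The ribophorins RPN2 and RPN1 were the most abundant, RPN2 with 335 and 397 RPKM (0.28, interval 0.24 to 0.33) and RPN1 with 199 and 244 RPKM (0.33, interval 0.28 to 0.39). DDOST, another core subunit, had 169 and 188 RPKM (0.19, interval 0.12 to 0.25), and the small DAD1 had 81.7 and 89.6 RPKM (0.17, interval 0.0073 to 0.34). OSTC, a subunit of the complex that sits at the translocon, had 44.8 and 44.7 RPKM (0.03, interval -0.14 to 0.21). STT3A and STT3B are alternative catalytic subunits: STT3A acts as the chain enters the ER, and STT3B can glycosylate sites that were skipped. STT3A had 181 RPKM in both libraries (0.04, interval -0.01 to 0.10, or 0.0026 to 0.08 from reads at its annotated length). STT3B had 40.8 and 61.2 RPKM (0.62, interval 0.51 to 0.74), the highest ratio of the 48 genes. STT3A was 4.43-fold more abundant than STT3B in the mRNA library and 2.96-fold in the RNC-mRNA library. The difference of their ratios was 0.58, with an interval of 0.45 to 0.71.

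**Figure D4:**
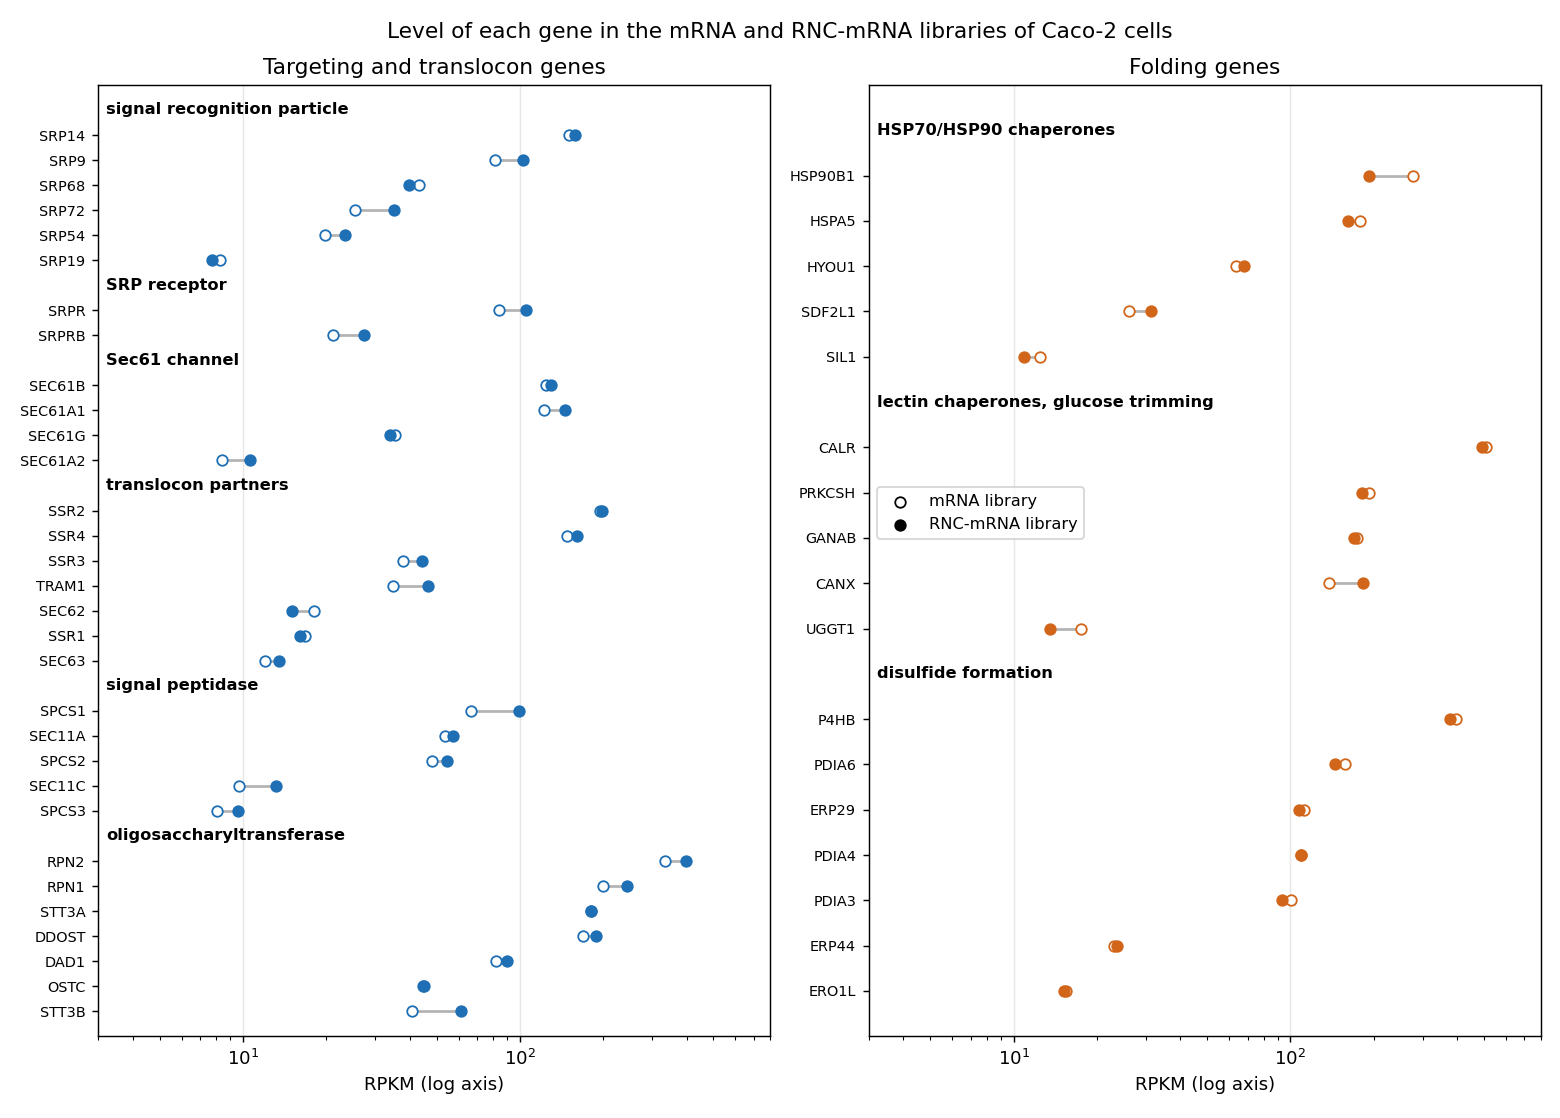
Level of each gene in RPKM (horizontal log axis) in the mRNA library (open circles) and the RNC-mRNA library (filled circles), sorted by mRNA level within each subgroup. The filled circle is to the right for STT3B (40.8 to 61.2 RPKM) and SPCS1 (66.4 to 99.5 RPKM) and to the left for HSP90B1 (277 to 192 RPKM), while most folding genes have circles that nearly coincide.

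Folding genes were as a group the more abundant: their summed level was 2500.1 RPKM in the mRNA library from 17 genes, against 2422 RPKM from the 31 targeting and translocon genes. In the RNC-mRNA library the order was the other way, with 2374 RPKM for folding and 2751 RPKM for targeting and translocon genes. As shares of all summed RPKM, folding genes held 0.541% and 0.514%, and targeting and translocon genes 0.524% and 0.595%.

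Among the chaperones of the HSP70 and HSP90 classes, the 2 most abundant genes had ratios below the median. HSP90B1, the ER form of HSP90 (GRP94), had 277 RPKM in mRNA and 192 RPKM in RNC-mRNA, from at least 425 and 338 reads, the lowest ratio of the 48 (-0.49, interval -0.70 to -0.28, or -0.54 to -0.44 from the 7650 and 6084 reads at its annotated length). It was the only one of the 48 within the lowest 25% of expressed genes by ratio, while 12 were within the highest 25%. Over genes of at least 10 RPKM the lower quartile was -0.15, and UGGT1 (-0.34) and SEC62 (-0.23) were below that as well. HSPA5 (BiP), the main ER HSP70, had 179 and 161 RPKM (-0.11, interval -0.16 to -0.06). The ratio of HSP90B1 was lower than that of HSPA5 by a difference of -0.38 (interval -0.59 to -0.17). HYOU1, a large HSP70 relative that exchanges nucleotide on BiP, had 63.7 and 67.9 RPKM (0.13, interval -0.05 to 0.31, or 0.06 to 0.20 from reads at its annotated length). SIL1, another exchange factor of BiP, had 12.4 and 10.9 RPKM (-0.15, interval -0.53 to 0.23). SDF2L1, a luminal partner of BiP cochaperones, had 26.1 and 31.3 RPKM (0.30, interval 0.04 to 0.56). Summed over these 5 genes the level was 558 and 463 RPKM.

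Calnexin and calreticulin, the lectin chaperones that hold newly glycosylated proteins, differed. CALR, the soluble luminal form, was the most abundant of the 48 genes with 508 and 491 RPKM (-0.01, interval -0.05 to 0.03). CANX, the membrane-bound form, had 138 and 183 RPKM (0.44, interval 0.35 to 0.53), the highest ratio of the folding genes. The difference of 0.45 (interval 0.35 to 0.55) brought the excess of CALR over CANX from 3.67-fold in the mRNA library to 2.68-fold in the RNC-mRNA library. Glucosidase II trims the glycan so that these lectins bind and release. Its catalytic subunit GANAB had 174 and 170.3 RPKM (0.0097, interval -0.04 to 0.06) and its other subunit PRKCSH 192 and 182 RPKM (-0.04, interval -0.10 to 0.02), a difference of -0.05 (interval -0.13 to 0.03). UGGT1, which adds glucose back to misfolded glycoproteins, had 17.5 and 13.5 RPKM (-0.34, interval -0.44 to -0.24).

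The 7 genes of disulfide formation had a narrow range, with ratios from -0.08 to 0.07, although their mRNA levels ran from 15.5 to 395 RPKM. P4HB, the protein disulfide isomerase that is also a subunit of prolyl hydroxylase, had 395 and 378 RPKM (-0.02, interval -0.08 to 0.03). PDIA6 had 157 and 145 RPKM (-0.08, interval -0.14 to -0.0095) and was the only one whose interval left out the median. PDIA3, which works with calnexin and calreticulin, had 101 and 93.3 RPKM (-0.07, interval -0.14 to 0.0042). PDIA4 had 109 RPKM in both libraries (0.03, interval -0.03 to 0.10), and ERP29, a non-catalytic relative, 111 and 107 RPKM (-0.02, interval -0.16 to 0.12). ERP44, which retains ER proteins that lack a retrieval signal, had 23.1 and 23.6 RPKM (0.07, interval -0.10 to 0.23). ERO1L, the oxidase that recharges disulfide isomerases, had 15.5 and 15.2 RPKM (0.0078, interval -0.24 to 0.26).

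Many folding genes are induced by the unfolded protein response through the ER stress element, which reads CCAAT, then any 9 bases, then CCACG. It was searched on both strands in RefSeq promoter windows of GRCh38.p14, each from 250 bases before to 50 after a start site. Entries matched 42 of the 48 genes by symbol; TRAM1, RPN1, SRPR, SPCS1, STT3B and PDIA3 were not matched. The element was found in 5 of the 16 folding genes with an entry (HSPA5, HSP90B1, CALR, CANX and PDIA6) and in 0 of the 26 targeting and translocon genes. Of all 27305 genes with an entry, 25 (0.0916%) held it. Each site is shown with 10 bases on either side, for the 5 genes found to hold the element. Capitals mark the ends of the element, which read CGTGG and ATTGG where it lies on the opposite strand to the gene, and lines run 5′ to 3′ on the gene's strand.
HSPA5, chr9:125241381-125241419, minus strand: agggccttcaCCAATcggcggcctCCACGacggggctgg
HSP90B1, distal site, chr12:103930206-103930244, plus strand: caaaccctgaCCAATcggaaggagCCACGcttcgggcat
HSP90B1, proximal site, chr12:103930311-103930349, plus strand: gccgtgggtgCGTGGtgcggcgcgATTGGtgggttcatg
CALR, chr19:12938374-12938412, plus strand: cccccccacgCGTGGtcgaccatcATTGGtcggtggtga
CANX, chr5:179698768-179698806, plus strand: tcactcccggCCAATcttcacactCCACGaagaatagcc
PDIA6, chr2:10812843-10812881, minus strand: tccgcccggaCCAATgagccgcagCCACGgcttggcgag

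The element began 66 bases before the start site in HSPA5, 86 in PDIA6, 194 and 89 in HSP90B1, 225 in CALR and up to 189 in CANX, whose windows for several start sites share it. The 5 genes with it did not share a translation ratio: they ran from -0.49 (HSP90B1) to 0.44 (CANX), with a median of -0.08, and the other 12 folding genes from -0.34 to 0.30, with a median of -0.0039. Its separate ends are common. CCAAT on either strand was in 39.7% of all genes with an entry, in 13 of 16 folding genes and in 14 of 26 targeting genes, and CCACG in 42.1%, 10 and 19. Of the other 20 genes holding the whole element, 5 are on the lists of related ER genes described next: ALG12, CRELD2, ERO1LB (ERO1B), SERP1 and XBP1.

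Related genes that are not among the 48 gave a background for the ER route. Their counts above the median stand beside the 62.2% of expressed genes of at least 10 RPKM that lay above it. The lists of ER genes also hold genes below 10 RPKM, so this background is only rough. The share above ran from 25.3% in the lowest decile of level to 70.1% in the highest. A count near 62.2% says nothing particular about a list. Of 25 genes for other insertion routes and nascent chain factors, 20 (80%) lay above the median of all expressed genes (median ratio 0.24). BTF3, the beta subunit of the nascent polypeptide-associated complex, had 352 and 396 RPKM (0.21, interval 0.15 to 0.27), and NACA, its alpha subunit, 142 and 119.7 RPKM (-0.21, interval -0.27 to -0.15). In this list EMC8, of the ER membrane protein complex, was highest (0.60) and CAMLG, a receptor for tail-anchored proteins, lowest (-0.68). Of 24 expressed genes for other oligosaccharyltransferase subunits and glycan assembly, 17 (70.8%) lay above (median 0.12). The most abundant genes of this list were the small subunits OST4 (160.2 and 195 RPKM, 0.32) and TMEM258 (171 and 183 RPKM, 0.13, interval -0.01 to 0.28). Both were above the median of all expressed genes, as were, with that centre, the 7 subunits among the 48. TMEM258 lay below within its own decile of level (-0.037). ALG10 (1.02, interval 0.40 to 1.86) and ALG10B (-0.40, interval -0.84 to -0.05) were the extremes of that list. They are close paralogs of low level, so their shares of reads are uncertain.

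Other ER chaperones and foldases did not lie as low as the 17 folding genes. Of 37 expressed, 25 (67.6%) were above the median (median 0.13), against 62.2% of expressed genes of at least 10 RPKM. No test of the difference from the 17 folding genes was possible. PPIB, an ER prolyl isomerase, had 239 and 251 RPKM (0.10) and SERPINH1, the collagen chaperone HSP47, 195 and 282 RPKM (0.57, interval 0.49 to 0.64). TMX4 was highest (0.59) and FKBP14 lowest (-1.38, interval -2.07 to -0.77). Of 28 genes of ER-associated degradation, 18 (64.3%) lay above (median 0.21). The segregase VCP had a ratio of 0.14 and AUP1 0.33, the ubiquitin-conjugating UBE2J1 was highest (0.78) and the lectin OS9 lowest, with 139.5 and 88.5 RPKM (-0.62, interval -0.69 to -0.55).

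Sensors and effectors of the unfolded protein response were above the median in 9 of 13 cases (69.2%, median 0.21), against 62.2% of expressed genes of at least 10 RPKM. ATF4 had 195 and 191 RPKM (0.01) and XBP1 115 and 134 RPKM (0.26, interval 0.18 to 0.34). CREB3L2 was highest (0.62) and the stress-induced DDIT3 (CHOP) lowest, with 22.3 and 12.9 RPKM (-0.74, interval -1.03 to -0.46). Outside the ER, cytosolic chaperones were above the median in 22 of 31 cases (71.0%, median 0.21) and proteasome core and base subunits in 16 of 20 (80%, median 0.12). In the highest decile of level, 70.1% of all genes lay above. The median mRNA level was 80.9 RPKM for these chaperones and 96.5 RPKM for these subunits, within the range of that decile. HSPA8, the main cytosolic HSP70, had 998 and 1166 RPKM (0.26, interval 0.24 to 0.29), against -0.11 for its ER counterpart HSPA5. HSP90AB1 had 605 and 631 RPKM (0.10, interval 0.07 to 0.13), against -0.49 for HSP90B1. Within their own deciles of level, HSPA8 was at 0.09 and HSP90AB1 at -0.07, against -0.28 for HSPA5 and -0.66 for HSP90B1. No interval of these differences was computed. HSPA1B, nearly identical to HSPA1A and so uncertain, was lowest in its list (-0.72) and BAG2 highest (0.52). PSMB3 (0.26) and PSMA7 (0.32) were the most abundant proteasome genes, from PSMA5 (-0.12) to PSMB2 (0.50).

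Reads of some of these genes may be shared with other loci. Pseudogenes named by the gene's symbol, then P and a number, are listed by RefSeq for 14 of the 48, most for OSTC (8), SRP14 (5) and SPCS2 (4). Pseudogenes named in any other way were not counted, so the remaining genes, HSP90B1 among them, may have some. Without these 14 genes, the median ratio was 0.29 for targeting and translocon genes and -0.0017 for folding genes. SSR4 and UGGT1 are paired in the table with non-coding (NR) records of protein-coding genes. The labels name no strand-preserving step, so reads from overlapping antisense genes cannot be told apart.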

How the data were processed

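The values are RPKM, computed by the authors and deposited as 1 table with a column per library, per the file headers. The genome build was hg19, per the submitters' processing notes, and the aligner and counter are not given in the sources used here. Library totals were found by trying whole numbers for the one that turned most RPKM values, with GENCODE 29 transcript lengths, into whole reads within the rounding of 7 printed digits. For each gene, the fewest whole reads explaining both values, within a relative error of 2e-07, gave the counting intervals; reads at the whole-read length nearest to the annotated one were an alternative. Intervals of the difference between 2 genes are Woolf intervals of the log odds ratio of those reads, computed for 12 pairs of related genes. From the fewest reads, 7 of the 12 left out 0. Pairs of unrelated genes were not compared, so this count has no background. Recovery of totals and intervals was tested on simulated data. Computation used Python 3.11.15 with numpy 2.4.6, pandas 2.3.3 and scipy 1.17.1.

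The 48 genes, their subgroups and the other lists were chosen with earlier results of these data known. All 48 could be named; from each other list the rule took the 2 most abundant genes and the highest and lowest ratio. Older symbols were matched through RefSeq (GRCh38.p14), and every listed gene was found. Alternatives were pseudocounts of 0.01 and 1, a higher filter (5 RPKM) or none, other centres, other groupings and a 1.5-fold rule. Centring on genes of at least 10 RPKM or on a gene's own decile of level, leaving out genes with pseudogenes or NR records, and reads at the annotated length were added after the data were seen.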

Additional observations from a re-analysis of the deposited data

How the results depend on the processing

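Of 16 alternatives for the difference between the medians, 7 shift all genes nearly alike and so cannot move it. In the other 9 the folding median was below the targeting and translocon median, with differences from -0.30 to -0.15, the smallest with signal peptidase and oligosaccharyltransferase genes counted with folding (folding median 0.042). Where each group lay against the centre depended on the centre. The folding median was -0.10 with a mean RPKM of at least 5, 0.086 with no filter, -0.085 with upper-quartile scaling and -0.092 with the ratio of summed RPKM without the 100 most abundant genes. With genes of at least 10 RPKM as the centre the medians were 0.10 (targeting) and -0.14 (folding), and within a gene's own decile of level 0.11 and -0.19. Genes above the centre numbered 33 of 48 as reported, 43 with no filter, 26 with a mean of at least 5 RPKM and 20 within the own decile. Of the 48 genes, 25 kept the sign of their ratio under all 10 scalings, filters and pseudocounts, 19 of them targeting or translocon genes.

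Genes with an interval wholly above and wholly below the centre numbered 22 and 5 as reported. They numbered 14 and 11 with a mean of at least 5 RPKM, with upper-quartile scaling and without the 100 most abundant genes, 13 and 14 against genes of at least 10 RPKM, and 12 and 15 within the own decile. The number below was 3 with no filter and 9 with the median of NM records. From reads at the annotated length they numbered 25 and 5 (32.3% and 30.8% of the 12743 expressed genes with a length). With a 1.5-fold rule, 2 genes were above, 3 with no filter and 0 under 6 other centres or filters. For the other centres and filters the matching shares of all expressed genes were not computed, so those counts have no background. No paired analysis was possible because each group has 1 library. Depth limits SRP19 and SEC61G, at 156 and 159 mRNA reads by either reckoning. It also limits SEC11C and SEC61A2, at 146 and 153 mRNA reads even at the annotated length. The wide intervals of SEC61A2, SEC11C and SIL1 come in part from the use of the fewest reads.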
